A study of Arabidopsis thaliana with 6 samples.

Results

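A set of 107 probe sets, of the 22746 on the ATH1 array, had a lower signal in pollen tubes of the Arabidopsis thaliana double mutant agp6 agp11 than in wild type pollen tubes while remaining expressed in both. They were chosen by 2 conditions on the deposited signals. The signal exceeded 40 on all 6 arrays, and the lowest wild type signal was at least 1.3 times the highest agp6 agp11 signal. The number that met both conditions was 116, and 9 of these, which include the DET3 gene of the V-ATPase and 3 small heat shock or FKBP-type genes, were left out of the set by name. Since the genotype contrast itself selected the members, their falls are given as descriptions, without a test, and the absence of overlap between genotypes is a property of the choice.

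The mutant is a homozygous double null obtained by crossing a pair of lines with Ds transposon insertions, and the control was the ecotype Nossen. Pollen of both genotypes germinated over 8 h of dark culture, a mesh removed the grains without a tube, and tubes pooled from many flowers gave each of 3 independent preparations per genotype, with 1 array for each. Some mutant pollen is aborted, and the mutant germinates poorly and grows shorter tubes, so only the mutant pollen that made a tube was measured. In such bulk RNA, fewer cells of a type and less RNA per cell cannot be told apart.

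Arabinogalactan proteins are hydroxyproline-rich cell surface glycoproteins. Their core proteins are hydroxylated and decorated with large type II arabinogalactans in the endoplasmic reticulum and Golgi, and many are tethered to the plasma membrane by a glycosylphosphatidylinositol anchor. AGP6 and AGP11 are a closely related pair made almost only in pollen and pollen tubes, where the tip grows by the continuous delivery of secretory vesicles carrying membrane and wall material.

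The signals checked the labels. AGP6 (At5g14380) was at 13313, 13677 and 9597 on the wild type arrays and at 31.1, 29.1 and 15.1 on the mutant arrays. AGP11 (At3g01700) was at 10016, 9448 and 5604 in the wild type and at 34.7, 40.4 and 32.5 in the mutant. Of 10 markers of the pollen vegetative cell, 7 had a named probe set. All 7 exceeded 40 on every wild type array, and 5 of them did so on every mutant array, the exceptions being AGP6 and AGP11. The 4 named tapetum markers and the 1 named photosynthesis marker did not exceed 40 on all arrays of either genotype. The summed signal of 5 sperm cell markers was 8833 to 11505 in the wild type and 16027 to 22161 in the mutant. It moved opposite to the members, and its part in their difference was not tested. Median signals of the 6 arrays were 23.3 to 24.5, and log2 signals correlated at 0.944 to 0.979 within a genotype and at 0.910 to 0.951 between genotypes.

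Of the 4858 probe sets with a signal above 40 on all 6 arrays, 2.39% met the condition for a lower signal in agp6 agp11, and 6.4%, or 311, met the same condition in the opposite direction. The lower ones were thus 27.2% of the probe sets that separated the genotypes. Quantile normalization of the arrays changed the counts to 158 lower and 213 higher, a share of 42.6%. By limma over all 22746 probe sets, 1.67% were lower and 2.01% higher in agp6 agp11 at an adjusted p under 0.05. With the replicate number as a block these shares were 3.31% and 5.03%. Transcripts whose mutant signal was at or under 40 are outside the set: 317 probe sets met the ratio with all wild type signals above 40, and 201 of them had a mutant signal of 40 or less on at least 1 array.

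**Figure D1:**
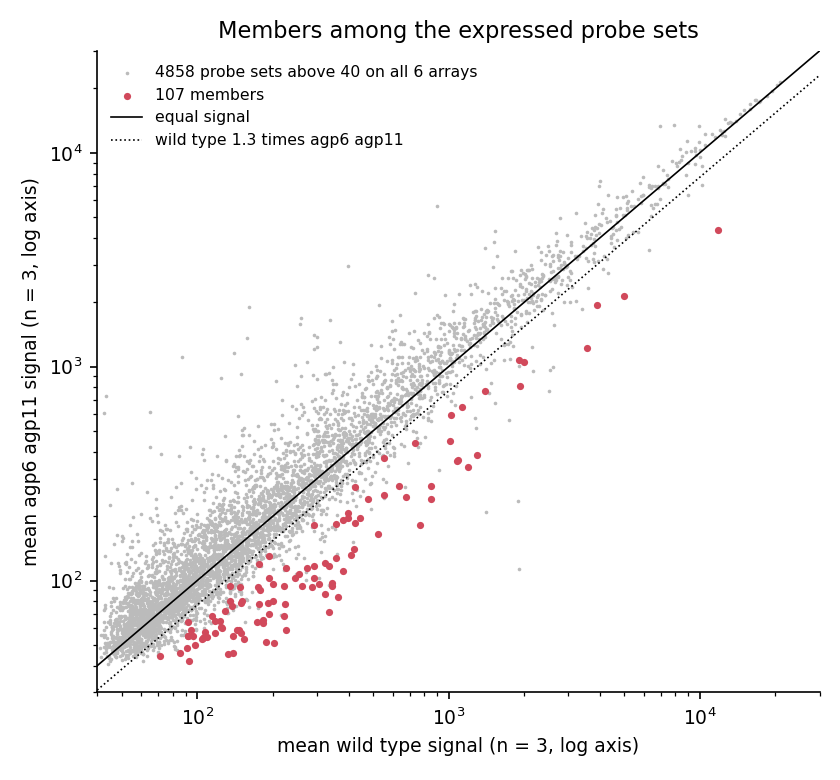
Mean signal of 3 agp6 agp11 arrays (vertical, log axis) against the mean of 3 wild type arrays (horizontal, log axis) for the 4858 probe sets above 40 on all 6 arrays, with the 107 members in red. The members lie below the line of equal signal over nearly the whole range of levels, with means in the wild type of 71.3 to 11862.

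The fall was moderate for most members. The ratio of the mean wild type to the mean mutant signal ran from 1.44 to 4.69, with a median of 2.28. It was under 2 for 42 members, from 2 to under 3 for 44, and at least 3 for 21, of which 3 reached 4. On the log2 scale the median difference was -1.21, with quartiles of -1.51 and -0.92, against a median of 0.11 over the expressed probe sets and 0.03 over all probe sets. Because the mutant signal had to stay above 40, a dim member could only show a small ratio. The ratios of single genes and the medians of roles given below are therefore values of those probe sets and are not ranked against each other.

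A locus name was found for 104 members. The platform's table and the study's list of changed genes both named 45, the list alone named 58, and the table alone named 1. The list was itself assembled from changed genes, so the named members are not an unselected sample. A role could be given to 80 of the named members, and 24 are of other or unknown role. Of the members, 9 have probe set names ending in _s_at, a type that may match transcripts of several genes. The platform's table assigns 7 of these to several genes each, and those are described as shared signals. It gives no gene for the other two, Hsp70-15 and THY-1, whose signals may be shared as well.

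The widest gap between the genotypes belonged to SPDS1 (At1g23820), a spermidine synthase, which transfers an aminopropyl group to putrescine to make the polyamine spermidine. Its wild type signals were 228, 224 and 223, and its mutant signals were 68.8, 53.5 and 54.4. The wild type arrays were nearly identical, and the lowest of them was 3.25 times the highest mutant array. On the log2 scale the difference was -1.94, with a standard error (SE) of 0.12 from the spread of its own 3 arrays per genotype. The SEs of genes outside the set, here and below, are from limma, which pools the spread over probe sets. They are not compared with that of SPDS1. Other polyamine enzymes were not among the members: of 4 with a named probe set, 0 passed the limma test in either direction (1 at an unadjusted p under 0.05, and 0 by the 90% lower bound of the fold change above 1.3, called the lower bound from here on), and all 4 had a positive difference, the smallest p-value belonging to agmatine iminohydrolase (AIH, At5g08170) with means of 49.8 in the wild type and 68.0 in the mutant (log2 difference 0.45, SE 0.19, adjusted p = 0.312).

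The 5 transport proteins had a median ratio of mean signals of 2.94. ABCI20 (At5g02270), an ATP-binding cassette protein without membrane spans, was at 841, 842 and 861 in the wild type and at 283, 203 and 239 in the mutant, a mean ratio of 3.51. IREG3 (At5g26820), a ferroportin-like metal transporter of plastids, was at 800, 647 and 860 against 228, 150 and 169. Its mean ratio was 4.22. PCR11 (At1g68610), of the plant cadmium resistance family of small membrane proteins, was at 11662, 10528 and 13397 in the wild type and 5010, 3597 and 4507 in the mutant. Even the lowest wild type array was 2.10 times the highest mutant array for this gene. CAX4 (At5g01490), a cation and proton exchanger of the vacuole, was at 137, 101 and 161 against 44.7, 47.3 and 43.4, with the mutant arrays close to the limit of 40. PILS6 (At5g01990), a PIN-likes auxin carrier family protein of the endoplasmic reticulum, had a ratio of 1.75, with mutant signals of 47.4, 57.0 and 60.9 that were near the limit of 40. Of the metal transport genes listed, 1 other had a named probe set, the calcium exchanger CAX3 (At3g51860), named only by the study's list of changed genes. Its means were 16.2 and 25.8, with an adjusted p of 0.132 by limma and 0.0413 with the replicate block.

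**Figure D2:**
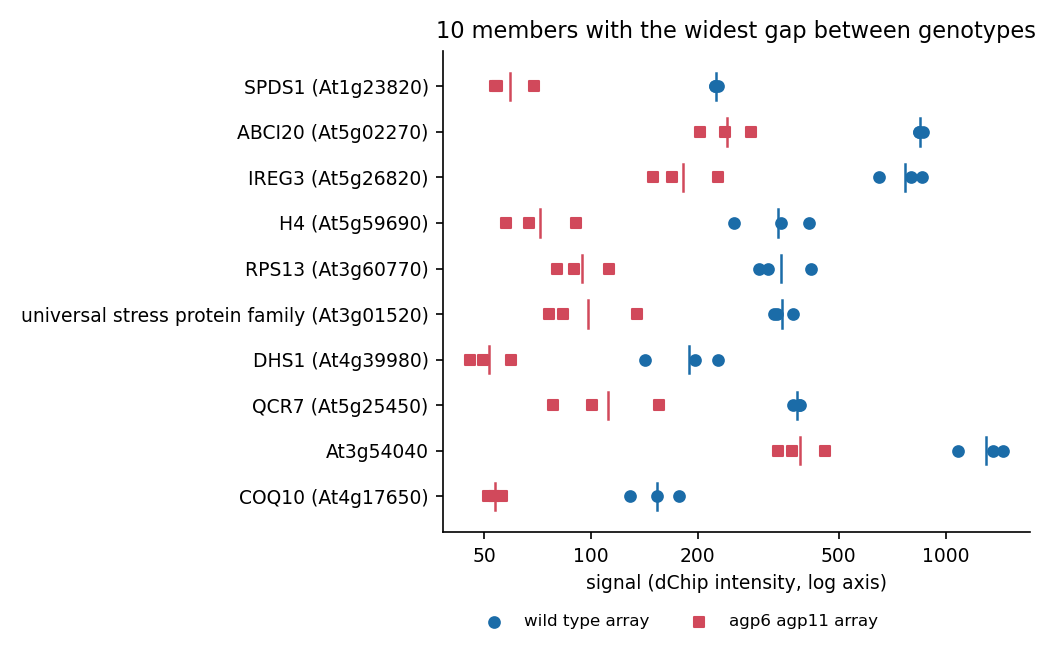
Signal on each array (horizontal, log axis) of the 10 members with the largest ratio of lowest wild type to highest agp6 agp11 signal. Circles are wild type arrays, squares are agp6 agp11 arrays and vertical bars are means of 3. Wild type arrays of SPDS1, ABCI20 and QCR7 almost coincide, whereas those of DHS1 spread from 141 to 228.

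The members included 5 probe sets for DNA replication and histone H4. That for histone H4 had a mean ratio of 4.69, and the platform's table assigns it to 8 loci, among them At5g59690. It read 252, 344 and 411 in the wild type and 66.9, 57.3 and 90.8 in the mutant. RNR2A (At3g23580), a small subunit of ribonucleotide reductase, which makes deoxyribonucleotides, was at 370, 214 and 385 against 139, 101 and 124. THY-1 (At2g16370), a bifunctional dihydrofolate reductase and thymidylate synthase, had a mean ratio of 2.33, and CDC6B (At1g07270), a factor that loads the replicative helicase, had one of 2.53. VIM1 (At1g57820), which binds methylated cytosines and is needed to maintain DNA methylation, had a ratio of 1.69.

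The replication list had 10 other named genes, of which 8 were named only by the study's list of changed genes and so are not an unselected sample. The median difference of the 10 was 0.80 on the log2 scale, with 0 below 0. Since the members were taken out of the list first, this median and count leave out the falls that met the conditions of the set. The platform's table named the other two, whose values are added after they were seen: the helicase subunit MCM7 (At4g02060), with a difference of 0.04 (SE 0.25, limma adjusted p = 0.970), and the polymerase alpha subunit ICU2 (At5g67100), with 0.29 (SE 0.26, adjusted p = 0.700). By limma 1 of the 10 rose, and with the replicate block 7 did, all of them among the 8. PCNA2 (At2g29570), a sliding clamp of the replication fork, was at 15.5, 21.0 and 14.1 in the wild type and rose to 61.5, 44.2 and 56.5 in the mutant (log2 difference 1.69, SE 0.21, limma adjusted p = 0.00213). The helicase subunits MCM4 (At2g16440) and MCM5 (At2g07690) had log2 differences of 1.24 and 0.90, with adjusted p of 0.0556 and 0.0597 by limma, and of 0.00245 and 0.00671 with the block. ORC1B (At4g12620), a subunit of the origin recognition complex, had a difference of 1.08 (adjusted p = 0.0871 by limma, 0.00696 with the block). Its probe set name ends in _s_at, so the signal may be shared with other genes. Sperm cell markers were higher in the mutant, as given above, and their part in these values was not tested.

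Among regulators of transcription, CDF1 (At5g62430), a DOF-type repressor of flowering genes, was at 139, 114 and 163 in the wild type and at 51.2, 41.9 and 43.9 in the mutant. ERF4 (At3g15210), an ethylene response factor that represses transcription, had a mean ratio of 2.77, and RHL41 (At5g59820), the stress-induced zinc finger protein also known as ZAT12, had one of 2.82. The wild type arrays of RHL41 spread widely, at 255, 323 and 497. LBD37 (At5g67420), a repressor of nitrogen-responsive genes, was tighter, at 93.7, 102 and 119 against 54.0, 54.0 and 52.7. HB33 (At1g75240), a zinc finger homeodomain protein, had a ratio of 2.19.

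**Figure D3:**
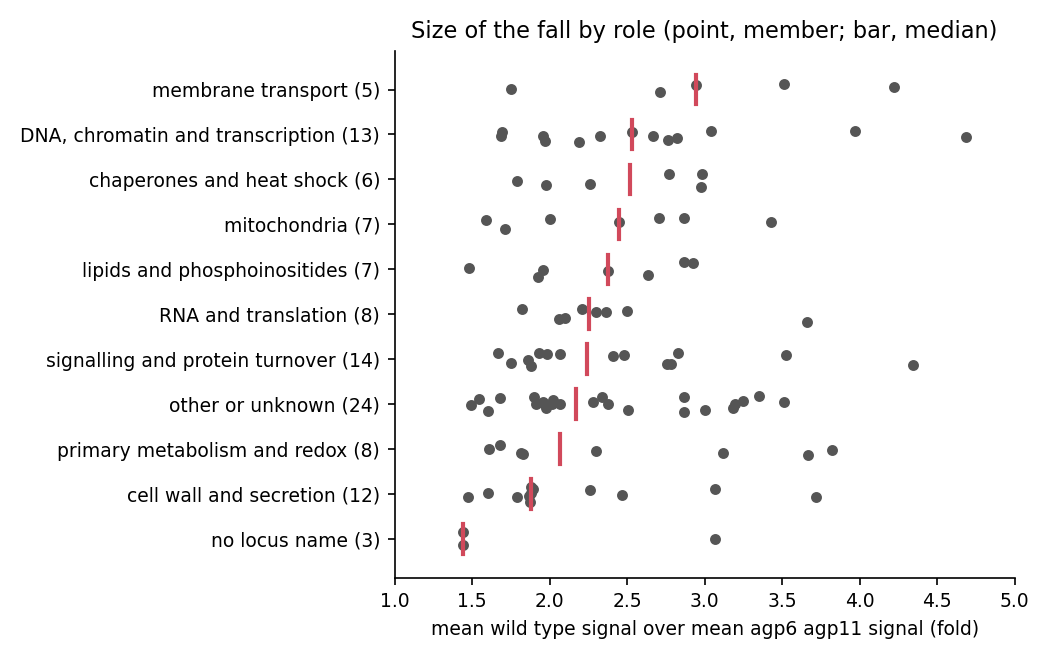
Ratio of mean wild type to mean agp6 agp11 signal (horizontal, fold) of each of the 107 members, by role, with the number of members in brackets and the median as a bar. The points run from 1.44 to 4.69 around a median of 2.28 over all members, and the limit of 40 keeps the ratios of dim members low.

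Single ribosomal protein genes were lower as well. RPS13 (At3g60770), a protein of the small cytosolic ribosomal subunit, was at 298, 317 and 418 in the wild type and at 112, 89.7 and 79.9 in the mutant, a ratio of 3.66. Its paralogue At4g00100, named only by the study's list of changed genes, had means of 38.7 and 61.9, in the opposite direction. The adjusted p was 0.0897 by limma and 0.0350 with the block. PGY2 (At1g33140) and a second locus share a probe set for ribosomal protein L9, with a ratio of 2.36, and a probe set for XW6 (At1g58380), a ribosomal protein S2, and 3 other loci had one of 1.82. RPS18 (At1g07210) had a ratio of 2.30. The gamma subunit of elongation factor 1B (At1g09640 and 1 further locus) was at 586, 529 and 546 against 321, 228 and 203, and eIF3F (At2g39990), a subunit of initiation factor 3, had a ratio of 2.10. The mRNA export factor RAE1 (At1g80670) and the glycine-rich RNA-binding protein CCR1 (At4g39260) had ratios of 2.50 and 2.06. Of 5 other named genes in the list of ribosomal copies and initiation factors, 0 passed limma (1 at an unadjusted p under 0.05), and 1 was higher with the block and by the lower bound.

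Mitochondrial members covered the respiratory chain, its quinone and the import machinery. QCR7 (At5g25450), a subunit of the cytochrome bc1 complex, was at 387, 370 and 388 in the wild type and at 78.0, 156 and 100 in the mutant. The wild type values lay close together, and the second mutant array was the highest of its genotype. COQ10 (At4g17650), a lipid-binding protein needed for coenzyme Q function in yeast, was at 153, 178 and 129 against 53.1, 51.1 and 56.2. ABC1 (At4g01660), a kinase-like protein of the family that acts in coenzyme Q synthesis in yeast, had a ratio of 2.44. TOM7-1 (At5g41685), a small subunit of the outer membrane translocase, and MPPalpha (At1g51980), which belongs to the processing peptidase built into complex III of plants, had ratios of 2.00 and 1.59. MST1 (At1g79230), a sulphurtransferase, and a HIG1 domain protein (At5g27760) had ratios of 2.71 and 1.71.

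Other named genes of complex III, coenzyme Q synthesis and import did not pass limma in either direction, 0 of 11 (1 at an unadjusted p under 0.05, and 1 by the lower bound), and their median log2 difference was 0.29. COQ6 (At3g24200), a hydroxylase of coenzyme Q synthesis, had means of 416 and 929 (log2 difference 1.11, SE 0.31, adjusted p = 0.0987), and was the 1 gene of these 11 to pass with the block, at an adjusted p of 0.00601. The second QCR7 locus (At4g32470), chosen after its values were seen, had means of 158 and 171 with a log2 difference of 0.12 and an SE of 0.23.

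In primary metabolism, DHS1 (At4g39980), the enzyme of the first step of the shikimate pathway to aromatic amino acids, was at 196, 228 and 141 in the wild type and at 45.5, 59.4 and 49.4 in the mutant. Of 3 other shikimate genes with a named probe set, 1 rose: shikimate kinase SK1 (At2g21940) was at 29.3, 36.7 and 31.4 in the wild type and at 58.7, 74.1 and 53.3 in the mutant, an adjusted p of 0.0355 by limma. SK1 was named only by the study's list of changed genes, and its call was lost when any of 5 of the 6 arrays was omitted. Serine decarboxylase SDC1 (At1g43710), which makes ethanolamine, was at 448, 415 and 416 against 213, 186 and 159. L-aspartate oxidase AO (At5g14760), the entry to NAD synthesis in plastids, the glutaredoxin GRXC2 (At5g40370) and the haem-binding family protein SOUL-1 (At2g37970) had ratios of 1.81, 1.68 and 1.83.

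Lipid enzymes and lipid-binding proteins made up 7 members. PI4K GAMMA 4 (At2g46500), named as a phosphatidylinositol 4-kinase of the gamma type, was at 4297, 4463 and 1936 in the wild type and at 1350, 1379 and 925 in the mutant. The third array was low in both genotypes. LPLAT1 (At1g12640), a lysophospholipid acyltransferase that re-acylates membrane lipids, was at 2194, 1425 and 2161 against 1018, 666 and 752. PLDBETA2 (At4g00240), a phospholipase D, was at 240, 218 and 213 against 96.4, 72.7 and 65.1. A phospholipase (At1g61850), a plastid fibrillin family protein (At2g35490), LDAP1 (At1g67360), a lipid droplet protein, and an ORMDL family protein (At5g42000), from a family that restrains sphingolipid synthesis, had ratios of 2.63, 1.96, 1.92 and 1.48.

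Named relatives of these enzymes had differences of either sign. Of 7 other named phosphoinositide and phospholipid genes, 5 of them named by the platform's table, 2 rose and 1 fell by limma. With the block 3 rose and 1 fell. The gamma-type kinase PI4Kg2 (At1g64460) was at 280.3, 293 and 245 in the wild type and at 1140, 861 and 1146 in the mutant (log2 difference 1.93, SE 0.25, limma adjusted p = 0.00248). PI4Kg6 (At1g13640) had means of 31.9 and 94.1 (adjusted p = 0.00669), and the call was lost without wild type replicate 1, at 0.0538. LPLAT2 (At1g63050), the second acyltransferase of its kind and the 1 gene that fell, was named only by the study's list of changed genes. It was at 90.5, 59.4 and 108 against 38.7, 36.1 and 29.5, which placed the mutant below the limit of 40. Its log2 difference was -1.27 (SE 0.25, limma adjusted p = 0.0231), and this call was lost without either wild type replicate 1 or 3, or without either agp6 agp11 replicate 1 or 2, at adjusted p of 0.0600 to 0.129.

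The 12 members with a part in the wall and in secretion had a median ratio of 1.88, with mean mutant signals of 48.6 to 449. P4H5 (At2g17720), a prolyl 4-hydroxylase of the kind that forms the hydroxyprolines to which arabinogalactans and extensin sugars are attached, was at 129, 119 and 184 in the wild type and at 49.8, 69.0 and 56.7 in the mutant. UGE4 (At1g64440), which interconverts UDP-glucose and UDP-galactose, was at 82.7, 103 and 87.5 against 57.7, 41.4 and 46.5. GALK2 (At5g14470), annotated as a galactokinase, had a ratio of 3.72, and its wild type arrays ranged from 159 to 506. The SNARE-associated Golgi family protein At1g71940 was at 194, 191 and 194 against 108, 99.5 and 100.4. An O-fucosyltransferase family protein (At1g14020) had a ratio of 1.47.

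The vesicle traffic members were RABA2c (At3g46830), a small GTPase of the trans-Golgi and early endosome class, at 772, 587 and 1190 against 308, 156 and 368, and the exocyst subunit SEC3, whose probe set covers SEC3A (At1g47550) and its neighbouring copy, at 184, 153 and 188 against 89.8, 102 and 89.98. VAMP726 (At1g04760), a vesicle SNARE, and SCAMP5 (At1g32050), a secretory carrier membrane protein, had ratios of 1.88 and 1.90. Of 7 other named exocyst and vesicle genes, 0 passed limma with or without the block. None of these had an unadjusted p under 0.05, and 0 passed the lower bound. Their log2 differences ran from -0.39 to 0.46, with a median of -0.10. Only 2 of the 7 exceeded 40 on all arrays. For the others the tests cannot separate no change from a signal too low to show one. SEC5B (At1g21170), the gene with the smallest p-value, had means of 20.6 and 27.9 (adjusted p = 0.424).

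The list of arabinogalactan protein glycosylation held the members P4H5 and UGE4, which were not tested. Of 17 other named prolyl hydroxylase, galactosyltransferase, glucuronosyltransferase and epimerase genes, 0 passed limma (5 at an unadjusted p under 0.05). Only 6 of the 17 exceeded 40 on all 6 arrays. With the block 2 were higher and 1 lower, and by the lower bound 1 was higher and 1 lower. UGE3 (At1g63180), an epimerase like UGE4, had means of 197 and 542 with a log2 difference of 1.55 (SE 0.41, adjusted p = 0.0790 by limma and 6.18e-04 with the block). UGE5 (At4g10960) had a difference of 0.96 with adjusted p of 0.234 and 0.0197. GALT5 (At1g74800), a galactosyltransferase that adds the first sugar to hydroxyproline, had means of 70.5 and 40.3, with adjusted p of 0.0949 and 0.0172. UGE4 was lower by choice. UGE3 and UGE5, named only by the study's list of changed genes, had positive differences. Nothing is read from these signs.

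Signalling and protein turnover held 14 members. UFL1 (At3g46220), the ligase that attaches the ubiquitin-like protein UFM1, had a ratio of 4.34, from wild type signals of 491, 235 and 367 and mutant signals of 104, 80.9 and 66.6. A universal stress protein family member (At3g01520) was at 336, 372 and 328 against 76.1, 83.0 and 134. MKK3 (At5g40440), a MAP kinase kinase, was more even, at 113, 111 and 128 against 53.9, 57.4 and 58.9. The receptor kinase SD2-5 (At4g32300) and the membrane protein THH1 (At1g14530) had ratios of 2.78 and 2.41.

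Members for conjugation of RUB, the ubiquitin-like activator of cullin ligases, were the E2 enzyme RCE2 (At2g18600), at 75.1, 69.2 and 111 against 43.3, 50.4 and 43.9, and a DCN1-like protein (At3g12760), of a family that promotes the same reaction, with a ratio of 1.98. Of 4 other named genes of RUB and UFM1 conjugation, 1 rose and 1 fell, both named only by the study's list of changed genes. RCE1 (At4g36800), the main E2 enzyme for RUB, was at 61.1, 52.4 and 46.7 and fell to 21.6, 23.4 and 22.4 in the mutant (log2 difference -1.24, SE 0.18, limma adjusted p = 0.00379). ECR1 (At5g19180), a subunit of the RUB E1 enzyme, was at 26.1, 32.3 and 22.8 and rose to 136, 190 and 86.8 (log2 difference 2.29, SE 0.29, adjusted p = 0.00242). UFC1 (At1g27530), the E2 enzyme for UFM1, had a difference of 0.14 (SE 0.25, adjusted p = 0.876) and did not pass.

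Ethylene genes among the members were ACS6 (At4g11280), a synthase of the ethylene precursor, EBF1 (At2g25490), an F-box protein that directs the degradation of the transcription factor EIN3, and ERF4. ACS6 was at 164, 170 and 266 against 76.5, 91.8 and 73.8, and EBF1 was at 146, 158 and 147 against 75.6, 94.5 and 70.5. Of 3 other named genes, 1 fell: ERF6 (At4g17490) was at 50.4, 54.3 and 53.2 in the wild type and at 27.2, 25.7 and 19.4 in the mutant (log2 difference -1.14, SE 0.19, limma adjusted p = 0.00899). The transcription factors EIL1 (At2g27050) and EIN3 (At3g20770) had differences of 0.93 (SE 0.29, adjusted p = 0.143, and 0.00591 with the block) and -0.02 (SE 0.30). ERF6 and EIL1 were named only by the study's list of changed genes, so the 3 are not an unselected sample.

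**Figure D4:**
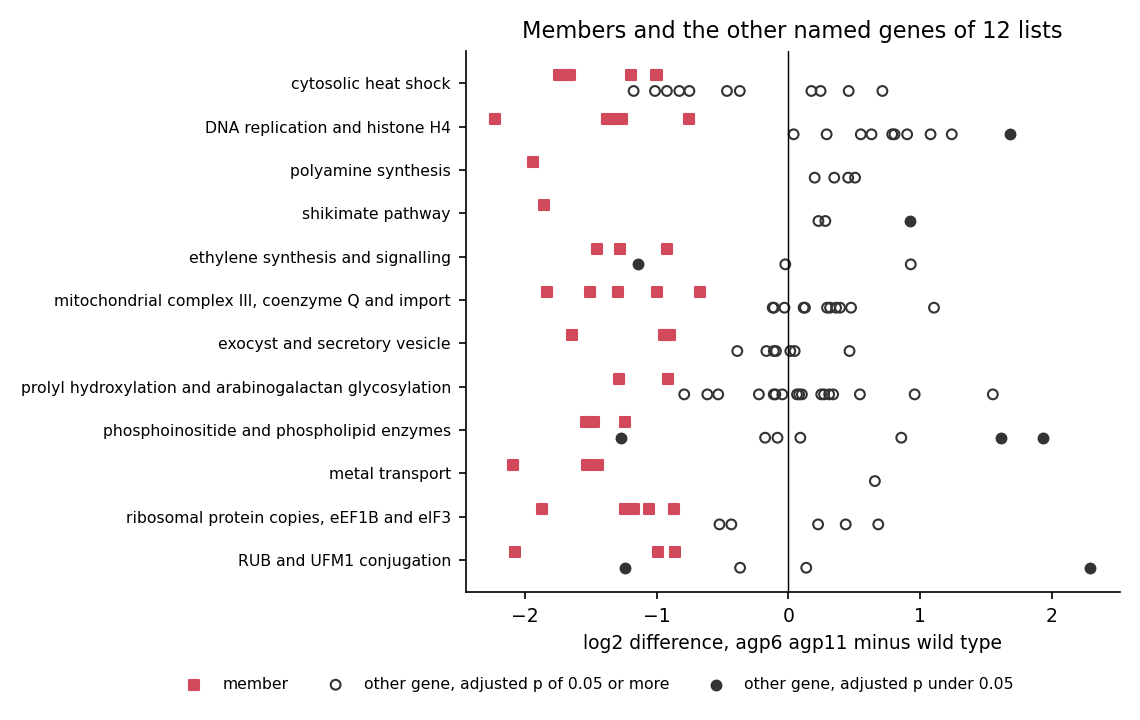
Log2 difference, agp6 agp11 minus wild type (horizontal), of the members (squares) and of the other named genes (circles, filled where the limma adjusted p was under 0.05) of 12 pathway lists. All members lie below 0 by choice. The 83 other genes are those left after the members and the left-out loci, also lower by choice, were removed. They lie on both sides, with 30 below 0 and 8 past the test.

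Over the 12 lists together, 83 genes that were neither members nor left out had a named probe set. The members and the left-out loci, lower by choice, were taken out of each list first. Falls that met the conditions of the set are therefore missing from the counts and medians of the other genes. By limma 5 of the 83 rose and 3 fell, and their median log2 difference was 0.20. With the replicate block 19 rose and 9 fell, and with the filter on low signals (above 40 on at least 2 arrays) 10 rose and 4 fell. Over all probe sets 2.01% rose and 1.67% fell by limma, and 5.03% and 3.31% with the block. The counts are not read against these shares, since some of the 83 were named only by the list of changed genes. Of these 83, 59 were named by the platform's table, without regard to their change, and 2 of the 59 rose and 0 fell by limma (8 had an unadjusted p under 0.05, 4 of them with a negative difference). With the block 3 of the 59 rose and 4 fell, and by the lower bound 3 were higher and 2 lower.

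The 6 chaperone members differed between the mutant arrays. Small heat shock proteins bind unfolding proteins, and the Hsp70 system refolds them. HSP17.6A (At5g12030) was at 864, 1349 and 1048 in the wild type and at 146, 513 and 435 in the mutant. The class I small heat shock gene At1g59860, which shares its probe set with At1g07400, was at 667, 781 and 591 against 96.2, 304 and 336. HSP17.4-CIII (At1g54050) was at 1869, 1998 and 1878 against 457, 1435 and 1320, so that its ratio of lowest wild type to highest mutant signal, 1.302, was just inside the limit.

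The co-chaperone Fes1A (At3g09350), an Hsp70 nucleotide exchange factor homologue, was at 1245, 1073 and 928 against 196, 350 and 546. Hsp70-15 (At1g79920) was at 172, 191 and 167 against 59.6, 87.6 and 86.9, and the J-domain protein J2 (At5g22060) at 504, 480 and 449 against 227, 206 and 291. The first mutant array was the lowest in 5 of these 6 members and in 27 of the 101 others, and in 14.9% of all expressed probe sets. Its signal divided by the mean of the other mutant arrays had a median of 0.384 over the 6 chaperones, 1.01 over the other members and 1.11 over the expressed probe sets. Only 1 member outside the chaperones had such a ratio under 0.5, At2g16590, at 82.5, 290 and 214, singled out after its values were seen.

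**Figure D5:**
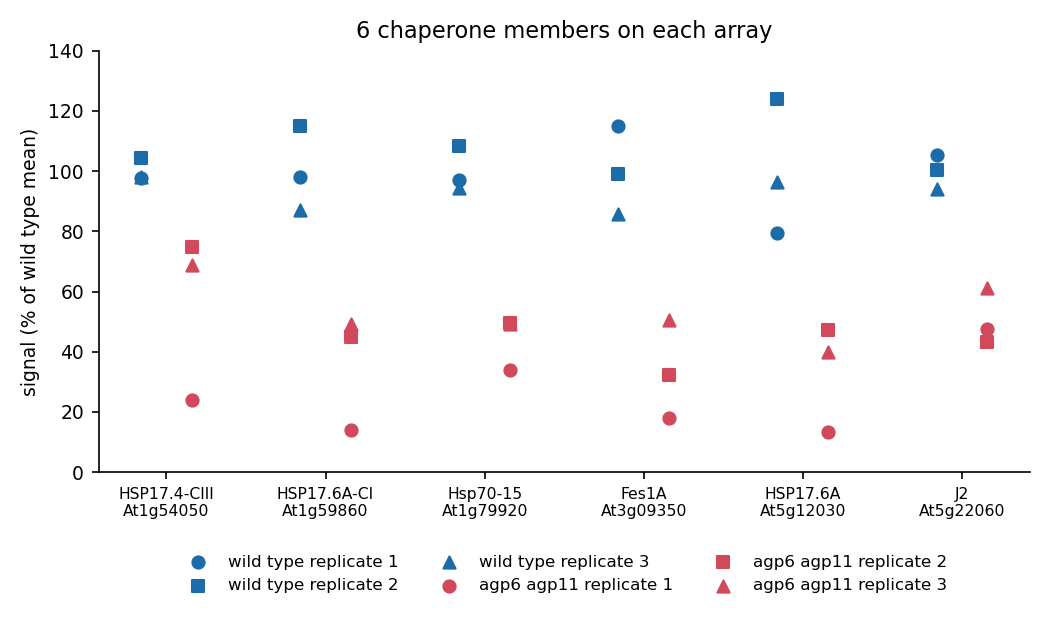
Signal of the 6 chaperone members on each array, as a percentage of the wild type mean of the gene (vertical), for wild type (blue) and agp6 agp11 (red) arrays with 1 symbol for each replicate number. Replicate 1 of agp6 agp11 is the lowest point for every gene except J2.

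Omission of agp6 agp11 replicate 1 reduced the log2 differences of these members most where the array stood apart. The difference went from -1.01 to -0.48 for HSP17.4-CIII, from -1.74 to -1.18 for HSP17.6A, from -1.66 to -1.08 for At1g59860 and from -1.68 to -1.30 for Fes1A. For Hsp70-15 it went from -1.20 to -1.01, and for J2 from -0.997 to -0.961. In the rest of the cytosolic heat shock list the same array was also low. Among its 7 genes that were not members and exceeded 40 on all arrays, the first mutant array was the lowest in 6, and its signal relative to the mean of the others ranged from 0.311 to 1.33 with a median of 0.541.

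Of 11 other named cytosolic heat shock genes, 7 of which the platform's table named, 0 passed limma (6 at an unadjusted p under 0.05, 4 of them lower). With the block 5 were lower and 1 higher, and by the lower bound 3 were lower. HSC70-1 (At5g02500), a constitutive Hsp70, had means of 309 and 157 (log2 difference -1.01, SE 0.29, adjusted p = 0.107, and 0.00492 with the block). ROF1 (At3g25230), an FKBP-type co-chaperone, had means of 360 and 202 (adjusted p = 0.140 and 0.0179), and HSP17.6C (At1g53540) had means of 3390 and 1851 (adjusted p = 0.182 and 0.0227). HSFA1A (At4g17750), a heat shock transcription factor, had means of 60.03 and 98.9 (adjusted p = 0.177 and 0.0349).

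Several of the members with the highest signals have an unknown or uncertain role. At2g46490 was at 5488, 4981 and 4574 in the wild type and at 2320, 2223 and 1887 in the mutant, and At3g26860 at 4172, 4078 and 3458 against 1847, 1745 and 2207. At3g54040, a PAR1 family protein, was at 1359, 1454 and 1085 against 336, 368 and 458, a ratio of 3.35. At3g07090 had a ratio of 1.90. At3g54240 was less even, with wild type signals of 1512, 1448 and 619 and mutant signals of 390, 354 and 276.

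The members differed in where the third wild type array stood. In 8 members its signal was under 0.6 of the mean of the other wild type arrays, among them At3g54240 (0.419) and PI4K GAMMA 4 (0.442), and in 7 of the 8 the third mutant array was also the lowest of its genotype. In 9 members it was over 1.5 of that mean, among them RAE1 (1.90), RABA2c (1.75) and RHL41 (1.72), and in 5 of the 9 the third mutant array was the highest. Over all members the third wild type array was the highest of its genotype in 52 and the lowest in 36. Among the expressed probe sets it was the highest in 31.0% and the lowest in 51.1%. The median ratio of wild type to mutant signal within replicates 1, 2 and 3 was 2.32, 2.18 and 2.24.

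At the edge of the set, the members just inside the limit were At1g18720, HSP17.4-CIII and the O-fucosyltransferase gene At1g14020. At1g18720 was at 109, 96.0 and 165 against 73.8, 53.2 and 66.6. Just outside were At4g39230, with a ratio of 1.2996 from wild type signals of 1644, 1137 and 1791 and mutant signals of 768, 390 and 875, SDH3-2 (At4g32210), a succinate dehydrogenase subunit, with 1.29, and DL1D (At2g44590), a dynamin family gene, also with 1.29. The probe set name of SDH3-2 ends in _s_at, so its signal may be shared with other genes.

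Few neighbours of members could be measured. By the gene order of the TAIR10.1 annotation of RefSeq, 103 members had neighbours. Of those neighbours, 23 had a platform-named probe set above 40 on all arrays, and 0 of them met the conditions of the set, a share near the background of 1.86% of all 2635 such loci, from which nothing is read. When names from the study's list were added, 1 pair of adjacent loci met the conditions, UFL1 and the small heat shock gene At3g46230, which was one of the loci left out. Chromosome 1 carried 36 of the members, or 35.0%, and 25.1% of the platform-named expressed loci. These shares were not tested, since most members were named by a list of changed genes.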

How the data were processed

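The authors brought the 6 ATH1 arrays to a common baseline in dChip (invariant set normalization) and deposited linear intensities, 1 per probe set, from a model without mismatch probes. Present and Absent calls came from Affymetrix Expression Console and were not used here. The members and gene lists were chosen with earlier results of these data known. Signals were raised to at least 1, taken as log2, and fitted by genotype in limma 3.58.1 under R 4.3.3 (lmFit and eBayes, trend on intensity, 5.54 prior degrees of freedom), with Benjamini-Hochberg adjustment over all 22746 probe sets and a threshold of 0.05. The fit was tested on simulated data. Members got no test.

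Probe sets were named from the platform's table, which gives 1 gene for 13484, several for 503 and none for 8759, and from 1995 rows of the study's list of changed genes, 14326 in all. Where a gene had several probe sets, the one with the highest mean was used. Signals of different probe sets differ in probe affinity and are not compared as levels. Named genes are AGP6 and AGP11, the 10 members with the widest gap, the 10 with the highest wild type mean, list members, up to 4 others per role, those nearest the limit, and up to 4 other genes per list with the smallest p-values. The values of 1 such gene are not reported here.

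Replicate numbers come from the labels. Deviations from the genotype mean correlated at 0.239, 0.347 and 0.379 between arrays of the same number, and at 0.0711 or less otherwise. Values with the number as a block are therefore given beside some genes whose call they change, and as counts for the others. Precision is limited by 3 arrays per genotype. Alternatives were quantile normalization, a common median, a filter above 40 on at least 2 arrays, an offset of 32, eBayes without a trend, a fold change whose 90% lower bound exceeded 1.3, other limits for the set and omission of each array. Other steps ran in Python 3.11.15 (pandas 2.3.3, matplotlib 3.10.9).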

Additional observations from a re-analysis of the deposited data

How the results depend on the processing

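No member changed sign under any alternative run. With an array omitted or the offset of 32, the conditions of the set fixed this outcome in advance. Only quantile normalization and the common median could have changed a sign. Of the values of 75 named members under the alternatives, 704 stayed within 1 SD between replicates and 38 moved further, all with the offset of 32 or quantile normalization. The median difference over the members lay between -1.37 (quantile normalization) and -0.996 (offset of 32). The number of members was 107. It was 70 with a signal minimum of 60, 65 with a ratio of 1.5 and 235 where the ratio was asked only within each replicate number (replicate block), and 115 to 201 when 1 array was omitted, the higher ends being 179 without replicate 2 and 201 without replicate 3 of the wild type. Quantile normalization gave 149, with 102 of the members. The limma test called 837 probe sets, 1897 with the replicate block, 1469 by the lower bound, and 372 to 871 with an array omitted (372 and 538 without replicate 1 and 2 of the wild type, 403 without replicate 1 of agp6 agp11). It called 8 list genes, 28 with the block, 14 with the filter on low signals, 20 by the lower bound, and 6 to 11 with an array omitted. The block moved further list genes past the test. The report gives its value beside some of them and covers the others by counts. Precision rests on 3 arrays per genotype.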
